A study of Mus musculus with 2 samples.

Results

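Neurosphere cells with high shares of 5 cartilage matrix transcripts were examined in GL261, a mouse glioma line from the C57BL/6 strain that the submitters list with the cell type Astrocytoma. GL261 was grown either adherent in serum-containing DMEM or for 12 days as floating neurospheres in the same medium supplemented with B-27 (diluted 1 in 50) and with epidermal and fibroblast growth factor, each at 20 ng/ml. Per the labels, cells of both cultures were dissociated with trypsin, while the paper's methods name trypsin for adherent cells and only trituration for neurospheres. The cells were frozen in 10% DMSO and profiled by 10x Genomics 3' single-cell RNA sequencing, with 1 library per culture. Since each culture gave 1 library, no difference described here has a replicate check, and every interval is an exact 95% interval that covers counting error only. The cells were selected on Comp, Matn1, Col10a1, Col2a1 and Cytl1 themselves: the UMIs (unique transcript molecules counted) of these 5 genes were divided by all UMIs of the cell, after mitochondrial and ribosomal protein genes were removed, and the top 10% of kept neurosphere cells were taken. This gave 428 members of 4276 kept neurosphere cells, and of 9327 kept cells in both libraries. The members were set against the 2138 kept cells at or under the median of the score, called comparison cells here, and 1710 cells lay between.

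In growing cartilage, chondrocytes secrete a matrix of type II collagen fibrils that carry type IX and type XI collagen, filled with the sulfated proteoglycan aggrecan. Matrilins and Comp bind these fibrils and link them to the rest of the matrix, and type X collagen marks the enlarged, hypertrophic chondrocytes next to forming bone. The transcription factor SOX9, working with SOX5 and SOX6, switches on most of these genes. Matn1 encodes matrilin-1, Col2a1 and Col10a1 the chains of type II and type X collagen, and Cytl1 a small secreted protein of cartilage.

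The data carried only a part of what the cartilage name implies. Sox9 had 0 UMIs in the kept cells of both libraries, which says only that no UMI was assigned to the gene and not that it was silent. Acan, the aggrecan gene, had 5 UMIs in the members and 17 in the comparison cells. Hapln1, whose product ties aggrecan to hyaluronan, had 6 and 84 UMIs, and Matn3 had 2 and 4. The members held 4515318 UMIs in all and the comparison cells 34801758. Over these totals the ratios were 2.27 (0.654–6.40) for Acan, 0.551 (0.196–1.25) for Hapln1 and 3.85 (0.349–26.9) for Matn3, all within counting error. Genes of the oligodendrocyte lineage were present in both sets of cells at close levels. Olig1 was at 1480 CPM (UMIs of the gene per 1000000 UMIs of the same cells) in the members and 1241 CPM in the comparison cells. The cells are therefore described by the 5 genes that chose them and not as a cell type.

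The region before the start of 3 of the 5 score genes is shown, because these genes are the basis of the selection. The sequences are the 250 bases upstream of each RefSeq start in build GRCm38.p6, all on the plus strand and written 5′ to 3′. Matn1 is at chr4:130944135-130944384, Cytl1 at chr5:37735269-37735518 and Col10a1 at chr10:34389731-34389980. Capitals mark matches, on either strand, to ACAAAG or ACAATG, which are core letters bound by SOX proteins, and to TATAAA, the TATA box.
Matn1: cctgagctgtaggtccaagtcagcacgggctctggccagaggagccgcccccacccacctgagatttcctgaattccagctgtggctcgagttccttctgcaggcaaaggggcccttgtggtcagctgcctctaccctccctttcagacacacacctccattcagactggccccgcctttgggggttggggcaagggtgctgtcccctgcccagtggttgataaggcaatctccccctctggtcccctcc
Cytl1: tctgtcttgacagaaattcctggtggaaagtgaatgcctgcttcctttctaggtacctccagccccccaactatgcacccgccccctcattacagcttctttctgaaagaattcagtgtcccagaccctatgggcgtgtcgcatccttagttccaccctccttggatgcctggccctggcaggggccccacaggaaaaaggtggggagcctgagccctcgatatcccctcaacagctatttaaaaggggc
Col10a1: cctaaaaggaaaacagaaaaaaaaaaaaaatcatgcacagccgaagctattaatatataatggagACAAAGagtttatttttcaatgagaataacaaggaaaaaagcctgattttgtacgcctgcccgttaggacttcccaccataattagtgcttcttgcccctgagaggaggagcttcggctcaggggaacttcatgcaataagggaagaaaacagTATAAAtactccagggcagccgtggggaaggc
The Col10a1 window held 1 ACAAAG and 1 TATAAA, which do not overlap, while the Matn1 and Cytl1 windows held none of the 3 motifs. Among 32851 RefSeq windows of the same length, ACAAAG was found in 16.5%, ACAATG in 10.7% and TATAAA in 12.4%. These matches describe the letters of the windows. By the GENCODE annotation (mm10 coordinates), Matn1 spans 130944385 to 130955475 on chromosome 4, Col10a1 34389981 to 34397085 on chromosome 10 and Cytl1 37735519 to 37739820 on chromosome 5, all on the plus strand. Col2a1 spans 97975602 to 98004695 on chromosome 15, minus strand, and Comp 70373558 to 70382066 on chromosome 8, plus strand.

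The members were shallower cells than the rest. Their median was 9119 UMIs and 3508 genes, against 14499 UMIs and 4504.5 genes in the comparison cells. Mitochondrial UMIs made up a median of 4.73% in the members and 3.76% in the comparison cells, and ribosomal protein genes 13.8% and 16.6%. Malat1, a nuclear RNA that can mark cells that lost cytoplasm, had a median of 32.0 and 18.4 UMIs per 10000. Of the 214 kept cells above the 95th percentile of UMIs, 2 were members, and no doublets were removed. The 2 libraries shared 12 cell barcodes. How depth, RNA quality and doublets bear on the values below was not tested beyond the alternatives named with them.

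The score itself had no gap at the threshold. The lowest member had 9.21 score UMIs per 10000 UMIs and the highest cell outside had 9.19, against a median of 1.36 over all kept cells. Within 10% of the threshold lay 67 members and 72 other cells, and 29.2% of kept cells had no UMI of any score gene. The members are thus the upper end of a range. They carried 5 to 175 score UMIs each, with a median of 15.

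The levels of the 5 genes chose the members and are given as a description. Matn1 was at 798 CPM (95% interval 772–824) in the members, 139 CPM between and 12.4 CPM in the comparison cells, and 63.6% of members had at least 1 Matn1 UMI. Col2a1 was at 545 CPM (524–567) in the members, 76.0 CPM between and 10.1 CPM in the comparison cells, and 53.0% of members had a UMI. Cytl1 was at 259 CPM (244–274), 121 CPM and 10.2 CPM, in the same order. It differed from the others in being found more often between (45.0% of cells) than in the members (38.6%). Comp was at 152 CPM (141–164) in the members, 23.3 CPM between and 3.56 CPM in the comparison cells. Col10a1 was at 61.1 CPM (54.1–68.8) in the members, but only 13 members (3.04%) had a UMI of it and 10 cells held 92.4% of its member UMIs. A single cell held up to 175 UMIs of Matn1, 88 of Col2a1, 53 of Cytl1, 49 of Col10a1 and 31 of Comp.

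**Figure D1:**
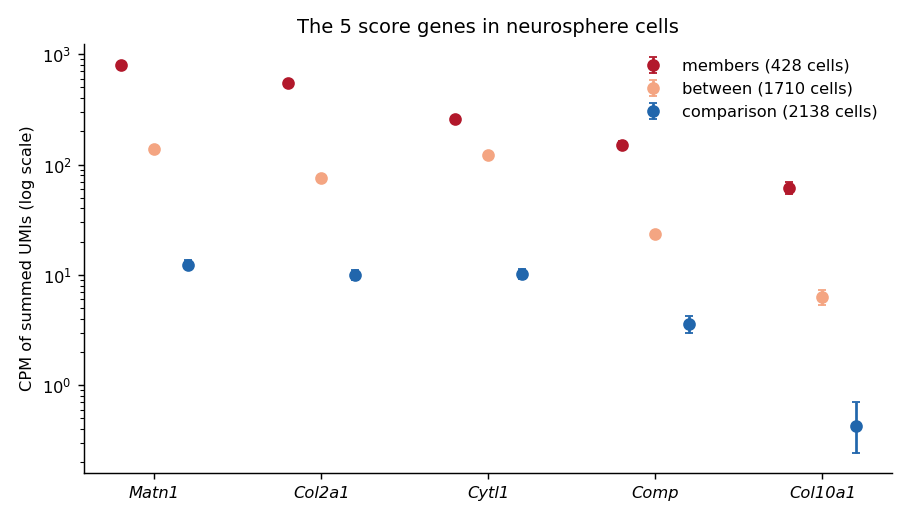
CPM (summed UMIs of a gene per 1000000 UMIs, log scale) of the 5 score genes in members, cells between and comparison cells of the neurosphere library, with exact 95% Poisson intervals. Matn1 runs from 12.4 to 798 CPM and Col10a1 from 0.431 to 61.1 CPM; these values chose the cells.

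In 405 of the 428 members 1 gene supplied more score UMIs than the other 4 together. Members grouped by the score gene with most UMIs drew 5.08 to 22.4% of their score UMIs from the other 4 genes. Of their 8194 score UMIs, 43.9% were Matn1, 30.1% Col2a1, 14.3% Cytl1, 8.36% Comp and 3.37% Col10a1. UMIs of 1 score gene were found in 143 members, of 2 genes in 188, of 3 in 86, of 4 in 11 and of all 5 in 0. The members held 61.2% of all kept Col10a1 UMIs and 51.7% of the Col2a1 UMIs, but 25.2% of the Cytl1 UMIs. With each cell thinned to 5000 UMIs, Matn1 was found in 60.0% of 407 members and in 6.36% of 2106 comparison cells, while 21 and 32 shallower cells dropped out. No population known to lack these genes was in the library to set a level of free RNA. In the adherent library Matn1 had 0 UMIs in 46290996, which allows at most 0.0648 CPM at 3 counts.

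The score was also read from UMIs that the ranking had not used. Each UMI of a cell was put at random into 1 of 2 parts with equal chance, the cells were ranked on the first part, and the second was read. Of the 428 top cells by the first part, 274 (64.0%) were also in the top 10% by the second, beside 10.0% of all kept cells. In the second part, Matn1 was at 732 CPM in these top cells and 25.2 CPM in the bottom cells. Col2a1 was at 514 and 19.3 CPM, Cytl1 at 207 and 20.6 CPM, and Comp at 130 and 6.80 CPM. Col10a1 was at 55.7 and 0.519 CPM. Both parts hold the same 5 genes of the same cells, so genes that vary between cells come out higher by the rule itself. The values describe how repeatable the ranking was and are no independent support for the set.

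The 5 genes did not all vary together. When cells were ranked on the other 4 genes, Comp was at 72.0 CPM in the top 10% and 13.3 CPM in the bottom 50%, a ratio of 5.42 (4.70–6.25). Col2a1 left out in the same way was at 179 and 51.1 CPM, a ratio of 3.50 (3.22–3.80). For Matn1 the ratio was 1.30 (1.19–1.41), yet fewer of the top cells had a Matn1 UMI (29.2%, 24.9–33.8%) than of the deeper bottom cells (36.9%, 34.9–39.0%). Cytl1 gave a ratio of 1.11 (0.986–1.24) and Col10a1 of 1.08 (0.728–1.56), so that neither level differed beyond counting error. Cytl1 too was found in fewer of the top cells (22.4%, 18.6–26.7%) than of the deeper bottom cells (28.4%, 26.5–30.4%). Col10a1 was found in 0.935% and 1.64% of cells, so its ratio rests on few cells.

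**Figure D2:**
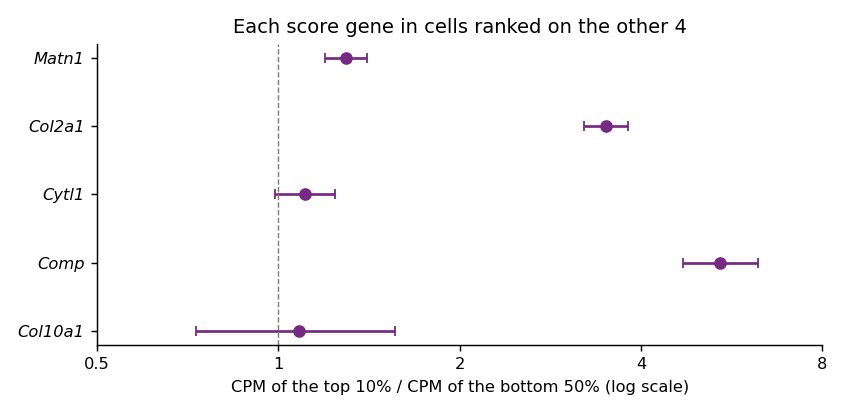
Ratio of CPM between the top 10% and the bottom 50% of neurosphere cells for each score gene when cells are ranked on the other 4 (log scale), with exact 95% intervals and a dashed line at 1. Comp (5.42) and Col2a1 (3.50) stand to the right, while the intervals of Cytl1 and Col10a1 include 1.

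Pairs of genes were compared in 4196 cells thinned to 5000 UMIs. Matn1 was found in 37.6% of cells with a Comp UMI (32.3–43.2%) and in 23.7% of cells without (22.3–25.0%). Col2a1 was found in 26.0% of cells with Comp and in 16.4% of those without. Cytl1 was found in 24.9% of cells with Col2a1 and in 16.2% without, but in 13.8% of cells with Matn1 and in 19.0% without. Comp thus went with Matn1 and with Col2a1, Cytl1 went with Col2a1, and Cytl1 was found less often beside Matn1. Matn1 and Col2a1 showed no difference beyond counting error, with Matn1 in 22.6% of cells with Col2a1 (19.6–25.9%) and in 25.2% of cells without (23.7–26.7%).

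Beyond the score, 12603 genes had at least 50 UMIs over the members and comparison cells together and are called measured. A gene was counted as higher or lower where the ratio of CPM + 1 was at least 2 or at most 0.5. By this rule 287 genes (2.28%) were higher and 216 (1.71%) lower in the members, and the median log2 ratio of all measured genes was 0.04. The balance turned round under TMM scaling, with 219 higher and 286 lower and a median of -0.05, and with the mean of each cell's CPM it was 287 and 294. The same cells gave both the score and these ratios, so the counts describe the members and are not a test. Of the 56 genes on a list of cartilage genes outside the score, 29 were measured, 7 were higher (24.1%, beside 2.28% of all measured genes) and 1 was lower (3.45%, beside 1.71%). The median log2 ratio of the 29 was 0.37, and the summed level of the list was 9530 CPM in the members and 5639 CPM in the comparison cells. The list was drawn up with earlier results of these data known, so its count is no independent support.

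The collagens of the type II fibril were the clearest part of that list. Col11a2, a chain of type XI collagen, which nucleates the fibril, was at 477 CPM in the members and 191 CPM in the comparison cells, a ratio of 2.50 (2.38–2.62), and 1.89 without Matn1 in the score. Col9a1 and Col9a3, chains of type IX collagen on the fibril surface, were at 1504 against 745 CPM and at 617 against 273 CPM. Col27a1, a fibrillar collagen of cartilage, was at 119 and 41.6 CPM, a ratio of 2.85 (2.58–3.15). Of the 6 collagens, 4 were higher (66.7%, beside 2.28% of all measured genes) and 0 lower (beside 1.71%). Col9a1 and Col9a3 lost the call in 9 and 6 of 20 alternatives. The remaining collagens were Col11a1, at 3381 and 1882 CPM, a ratio of 1.80, and Col9a2, at 127 and 93.6 CPM, a ratio of 1.36.

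Among other matrix genes, 4 of 17 were measured. Of these, 2 were higher (50.0%, beside 2.28% of all measured genes) and 0 lower (beside 1.71%). Cnmd, which encodes the vessel-repelling cartilage protein chondromodulin, was at 229 CPM in the members and 94.7 CPM in the comparison cells, a ratio of 2.42 (2.26–2.60). Chadl, a leucine-rich repeat protein related to chondroadherin, was at 69.1 and 30.7 CPM, and lost the call in 7 of 20 alternatives, with ratios down to 1.80. Matn2, a matrilin also made outside cartilage, was at 138 and 110 CPM. Chad, Prelp and Cilp had 0 UMIs in both sets of cells.

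No measured regulator of cartilage passed the threshold. The list held 8 transcription factors, of which 5 were measured. Sox6 was at 954 CPM in the members and 706 CPM in the comparison cells, a ratio of 1.35 (1.31–1.39), and Sox5 at 2.66 and 2.61 CPM. Trps1 was at 231 and 188 CPM, Mef2c at 20.6 and 12.4 CPM and Runx2 at 4.87 and 4.31 CPM. Signalling genes were sparse, with 1 of 7 measured: Ptch1, the hedgehog receptor, was at 24.8 and 20.2 CPM. Fgfr3, the FGF receptor that restrains chondrocyte growth, missed the minimum with 23 UMIs in the members and 22 in the comparison cells, which is 5.09 and 0.632 CPM, a ratio of 8.06 (4.29–15.2).

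Of 3 measured genes of the hypertrophic stage outside the score, 0 were higher and 1 was lower (33.3%). Of all measured genes, 2.28% were higher and 1.71% lower. These values are over all members, few of which held Col10a1. Spp1, which encodes osteopontin, was lower in the members, at 2.21 CPM against 16.1 CPM. It sat in few cells, with a UMI in 1.17% of members and 4.35% of comparison cells. Alpl, the tissue-nonspecific alkaline phosphatase, was at 2.21 and 2.64 CPM, and Vegfa at 21.0 and 18.1 CPM. Ibsp and Phospho1 had 0 UMIs in both sets, and Mmp13 had 0 UMIs in the members and 1 in the comparison cells.

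All 10 genes for making and modifying matrix were measured. Of these, 1 was higher (10.0%, beside 2.28% of all measured genes) and 0 lower (beside 1.71%). That gene was Papss2, which makes the sulfate donor for proteoglycans, at 37.4 and 15.3 CPM (2.05–2.92). The sulfate transporter Slc26a2 was at 281 and 203 CPM, the chondroitin sulfotransferase Chst11 at 197 and 143 CPM, and the collagen chaperone Serpinh1 at 485 and 374 CPM. Loxl2, a collagen crosslinking enzyme, and Chst3 had ratios of 0.625 (0.222–1.43) and 0.838 (0.537–1.26). Several of these counts leaned on Matn1. With Matn1 left out of the score, 2 cartilage genes were higher in place of 7, and the ratios were 1.29 for Cnmd, 1.19 for Papss2 and 1.39 for Col9a3. Col27a1 kept a ratio of at least 2.03 in all of the 20 alternatives.

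**Figure D3:**
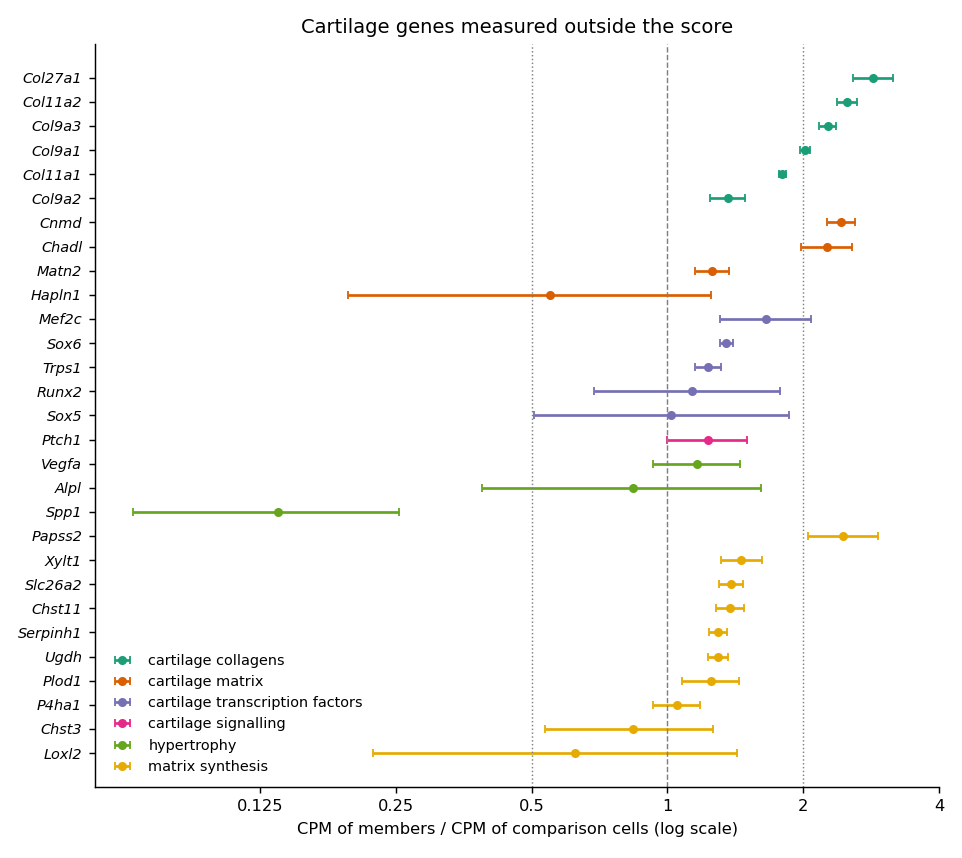
Ratio of CPM between members and comparison cells for the 29 measured cartilage genes outside the score, grouped by role (log scale), with exact 95% intervals, a dashed line at 1 and dotted lines at 0.5 and 2. The collagens lie between 1.36 (Col9a2) and 2.85 (Col27a1), and Spp1 lies at 0.137.

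Genes with at least 100 UMIs were also ranked by the ratio of CPM + 5, which holds back genes with few UMIs, and none of the 10 highest was on the cartilage list. The ratios printed are of CPM and follow another order. Pdzd2, a protein with several PDZ domains, was at 188 CPM in the members, 66.5 CPM between and 23.0 CPM in the comparison cells, a ratio of 8.14 (7.38–8.98), and was found in 54.0% of members and 18.3% of comparison cells. Btbd17 was at 90.4 and 10.8 CPM, a ratio of 8.39 (7.27–9.67). Enpp2, the secreted enzyme autotaxin, which makes lysophosphatidic acid, was at 73.7 and 13.0 CPM, a ratio of 5.67. H19, a long noncoding RNA from an imprinted locus, was at 284 and 61.1 CPM. Genes of 3 secreted signals were among the 10. Wnt6, a Wnt ligand, was at 551 and 142 CPM (ratio 3.89, 3.70–4.08), Tgfb2, a TGF-beta ligand, at 79.7 and 19.1 CPM (4.19, 3.67–4.77), and Nrtn, a ligand of the GDNF family, at 93.5 and 18.9 CPM (4.95, 4.37–5.60). Podxl2, Nptx1 and Myzap completed the 10, with ratios of 4.26, 4.25 and 4.87. With Col2a1 left out of the score the ratio of Enpp2 was 1.45, and with Matn1 left out that of Podxl2 was 1.88. The other 8 stayed above 2 in the 20 alternatives.

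At the other end were the 10 genes lowest by the same ranking. The chemokine gene Ccl2 had 5 UMIs in the members (1.11 CPM) and 1220 in the comparison cells (35.1 CPM), and Cxcl10 had 7 and 1082 UMIs. Lcn2, which encodes the siderophore-binding lipocalin-2, had 0 UMIs in the members and 27.0 CPM in the comparison cells, at least 40.7-fold lower at the floor of 3 counts over all members. These 3 genes sat in few cells, with a UMI in 1.96%, 3.65% and 1.87% of comparison cells. So did Spp1 (4.35%) and Stmn4 (5.75%), named below. Ccl2 was at a ratio of 0.767 when cells were thinned to 5000 UMIs before ranking. Tagln2, an actin-binding protein, was widespread, at 82.6 CPM in the members and 352 CPM in the comparison cells, 4.26-fold lower (3.84–4.73), with a UMI in 33.2% and 66.3% of cells. S100a10, the annexin A2 partner, was at 134 and 420 CPM, 3.13-fold lower (2.88–3.40), with a ratio of 0.507 and no call without Matn1 in the score. Neb was 3.38-fold lower, Asxl3 4.39-fold and Plaur, the urokinase receptor gene, 8.28-fold, and Stmn4 had 1 UMI against 395. Spp1 was the last of the 10.

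Signalling lists differed in how many genes passed the threshold, which 2.28% of all measured genes did upward and 1.71% downward. On the BMP and TGF-beta list 2 of 14 measured genes (14.3%) were higher and 0 lower: Tgfb2, and Id3, an inhibitor of basic helix-loop-helix factors that BMP signals induce, at 382 and 131 CPM. Without Col2a1 in the score Id3 was at a ratio of 1.55, under the threshold. Id1 was at 165 and 167 CPM and Id2 at 98.3 and 63.3 CPM, so the Id genes differed among themselves. Of 5 measured Wnt genes, 2 (40.0%) were higher and 1 (20.0%) lower. The higher ones were Wnt6 and Notum, a secreted enzyme that inactivates Wnt proteins, at 5.54 and 1.01 CPM (ratio 5.51, 3.16–9.46), and the lower one was Wnt7b, with 1 UMI against 222 (ratio 0.0347, 0.000875–0.195). Of 4 measured Notch genes 1 (25.0%) was higher, the ligand gene Dll1, at 108 and 48.4 CPM. It lost the call in 4 of 20 alternatives, with ratios down to 1.26. The FGF and ERK feedback list had 0 of 11 measured genes past the threshold in either direction, hedgehog 0 of 2 and hypoxia 0 of 8.

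Marker lists of other cell types differed in how they moved with the score. In the oligodendrocyte lineage list 15 of 16 genes were measured and 0 passed the threshold, with a median log2 ratio of 0.07 and a summed level of 3952 CPM in the members and 3512 CPM in the comparison cells. Sox10, a transcription factor of that lineage, was at 195 and 197 CPM. The summed astrocyte list was at 729 and 291 CPM, a ratio of 2.50 (2.41–2.60), against 1.69 for the cartilage list, and S100b alone made up most of that sum. Of its 5 measured genes (40.0% higher and 20.0% lower, against 2.28% and 1.71% of all measured genes), S100b (572 and 187 CPM) and Aldh1l1 (15.3 and 3.10 CPM) were higher, and the gap junction gene Gja1 was lower (2.44 and 9.60 CPM, with the call lost in 2 of 20 alternatives). The astrocyte filament gene Gfap had 1 and 13 UMIs and the water channel gene Aqp4 0 in both. S100b is also made by chondrocytes and by cells of the oligodendrocyte lineage. With Matn1 left out of the score Aldh1l1 was at a ratio of 0.993, and S100b at 2.35.

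The summed neuron list was at 377 and 207 CPM, a ratio of 1.82 (1.73–1.92), with a median log2 ratio of 0.92 over 3 measured genes, of which none passed the threshold. Most of that sum was Map2, a microtubule protein gene, at 307 and 158 CPM, while Snap25 had 0 UMIs in both sets and Dcx had 0 and 3. The part of these lists in the results was not tested. No gene passed the threshold in either direction among 7 measured neural stem genes, 5 tendon and fibroblast genes, 1 bone gene and 2 keratin genes. The tendon genes Scx and Tnmd had 1 and 0 UMIs in the members, and Krt8 was at 3487 and 2942 CPM. The lists for Schwann cells and melanocytes (4 measured), immune cells (1) and endothelium and mural cells (1) had 1 lower gene each, Gap43, Cd68 and Pecam1, beside 1.71% of all measured genes. With 1 measured gene, a count describes that gene and not the cell type, and Pecam1 lost the call in 4 of 20 alternatives. The pan-leukocyte gene Ptprc and the endothelial gene Cdh5 had 0 UMIs in both sets of cells.

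Genes of the G2/M list were lower in the members, while no G1/S gene passed the threshold. On the G2/M list 10 of 12 genes were lower (83.3%, beside 1.71% of all measured genes) and 0 higher, and the summed level was 1030 CPM against 2291 CPM, 2.22-fold lower (2.16–2.29). Ube2c, which marks mitotic proteins for destruction, was at 243 and 653 CPM, and the proliferation marker Mki67 at 30.3 and 67.5 CPM. All 10 were above a ratio of 0.5 with Matn1 left out of the score and also with the top 20% of cells as members, and the highest ratio in any alternative was 0.749, of Ccnb2. On the G1/S list 0 of 12 passed, with a median log2 ratio of -0.46. Per cell, G2/M UMIs had a median of 1.60 per 10000 in the members and 10.4 in the comparison cells, beside the difference in depth given above. When only cells at or under the median of proliferation UMIs were ranked, 7 cartilage genes were higher and the median log2 ratio of the list was 0.45. The stress list had 1 of 9 genes lower, Slc7a11, a median log2 ratio of -0.69 and a summed level of 509 against 824 CPM. The dissociation list had 1 of 8 lower, Atf3, and the interferon list 1 of 8, Cxcl10. Slc7a11 and Atf3 each lost the call in 4 of 20 alternatives.

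The members were not one uniform set. Each was assigned to the score gene with most UMIs in it, and 10 members with a tie to the first in the order Comp, Matn1, Col10a1, Col2a1, Cytl1, which gave 196 members led by Matn1, 111 by Col2a1, 72 by Cytl1, 40 by Comp and 9 by Col10a1. This split uses the score genes, while the genes below were not used by it. The 40 members led by Comp had the lowest median depth, 5908 UMIs, and those led by Col10a1 the highest, 13341 UMIs. Malat1 was at 7248 CPM in cells led by Comp and between 2812 and 4662 CPM in the other 4 sets, and its part in the values below was not tested.

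Cells led by Comp stood apart in several genes. Wnt6 was at 1579 CPM in them, against 407 CPM in cells led by Matn1, 624 CPM by Col2a1, 581 CPM by Cytl1 and 129 CPM by Col10a1. Pdzd2 was at 701, 211, 127, 82.5 and 7.19 CPM in the same order, and H19 at 1041, 159, 360, 301 and 86.3 CPM. Tgfb2 was at 471 CPM in cells led by Comp and between 7.19 and 76.3 CPM in the other 4. Col9a1 was at 2818 CPM in cells led by Comp and between 1224 and 1488 CPM in the others. Ube2c was at 7.92 CPM in them, with 2 UMIs in all 40 cells, and between 187 and 411 CPM in the others. With these 40 cells left out, 226 genes were higher and 192 lower, and the ratios were 6.82 for Pdzd2, 3.46 for Wnt6 and 2.97 for Tgfb2.

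Other genes were at higher levels with other leading genes. Enpp2 was at 215 CPM (190–244) in cells led by Col2a1 and at most 27.5 CPM in the rest. It was found in few of them, with a UMI in 20.7% of cells led by Col2a1. The share was 15.3% by Cytl1 and 14.3% by Matn1, so the level differed more than the share of cells. Btbd17 and Id3 were high in cells led by Comp (428 and 1267 CPM) and by Col2a1 (158 and 694 CPM), and lower in those led by Matn1 (23.3 and 213 CPM), Cytl1 (78.8 and 158 CPM) and Col10a1 (7.19 and 14.4 CPM). The following genes were chosen after their values were seen. Krt8, a keratin of simple epithelia, was at 6088 CPM in cells led by Comp and 4880 CPM in those led by Matn1. It was at 3013 CPM by Col10a1, 2587 CPM by Cytl1 and 1062 CPM by Col2a1. Fabp7, a fatty acid binding protein of neural progenitors, was at 218 CPM in cells led by Cytl1 and 76.3 CPM by Col2a1. It was at 43.1 CPM by Col10a1 and 27.0 CPM by Matn1, with 0 UMIs by Comp. The share of cells with a Fabp7 UMI was close by Cytl1 (33.3%) and by Col2a1 (31.5%). Col11a1 was close to even, between 2644 and 3741 CPM in the 5 sets.

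**Figure D4:**
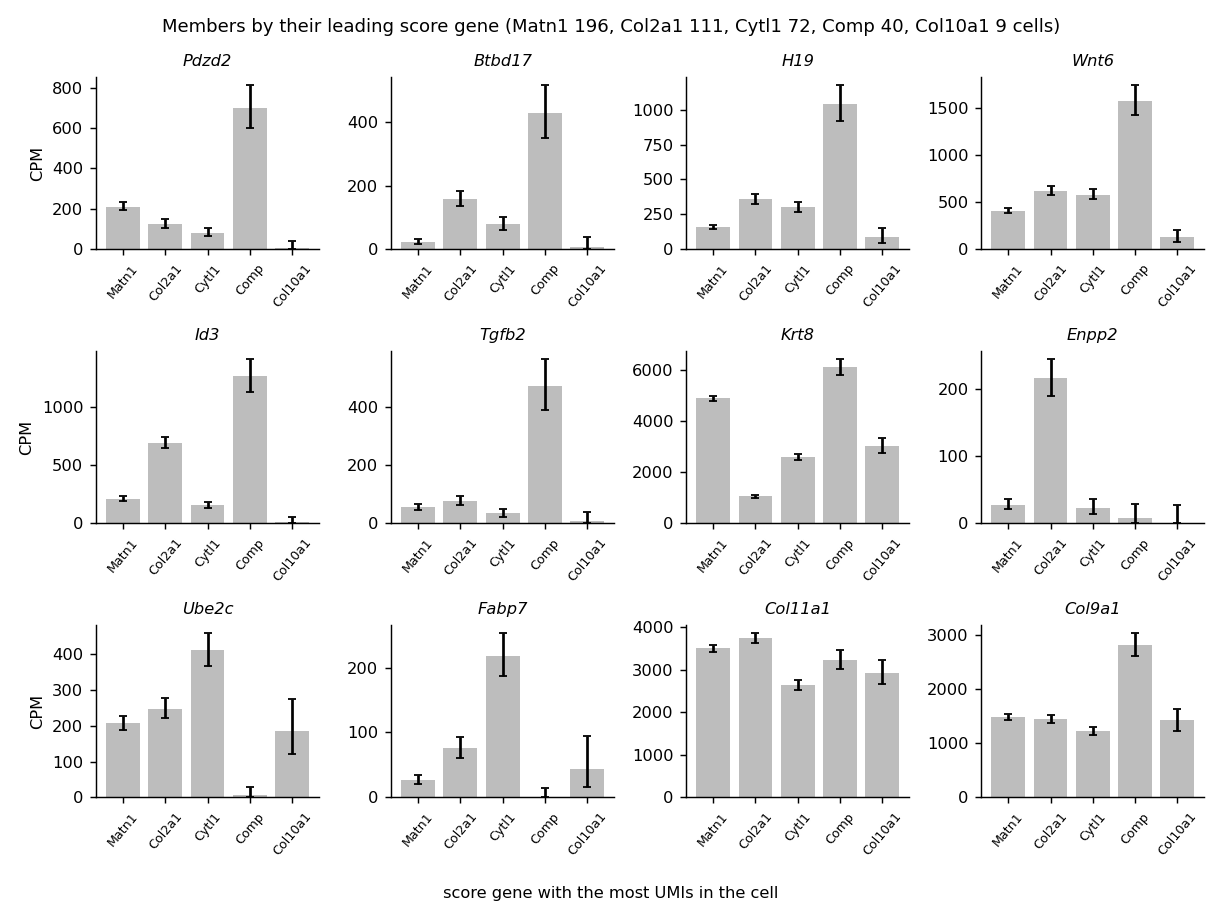
CPM of 12 genes outside the score in members split by the score gene with most UMIs (linear axes from 0), with exact 95% Poisson intervals. Wnt6 reaches 1579 CPM in cells led by Comp and Enpp2 215 CPM in cells led by Col2a1, while Col9a1 is at or above 1224 CPM in all 5 sets.

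Along the whole range of the score most levels changed by degrees. The lowest 30% of cells, which hold all cells at 0, formed 1 bin and the rest bins of 10% each, numbered 4 to 10, the members being bin 10. Col11a2 was at 178 CPM in the lowest 30%, 270 CPM in bin 7, 342 CPM in bin 9 and 477 CPM in the members. Col9a1 went from 680 CPM to 1162 CPM in bin 9 and 1504 CPM in the members. Btbd17 instead stayed between 9.17 and 17.6 CPM up to bin 8, was at 27.7 CPM in bin 9 and reached 90.4 CPM in the members.

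The lower genes given here were already lower in bin 9 than in the lowest 30%, and lower still in the members. Lgals1, a galectin, chosen after its values were seen, was at 3586 CPM in the lowest 30%, 2425 CPM in bin 7, 1889 CPM in bin 9 and 1280 CPM in the members. Ube2c was at 666 CPM in the lowest 30%, 441 CPM in bin 9 and 243 CPM in the members. Olig1 stayed between 1166 and 1480 CPM throughout. Median depth along these bins ranged from 9119 UMIs in the members to 17906 UMIs in bin 4, without an order below bin 8.

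**Figure D5:**
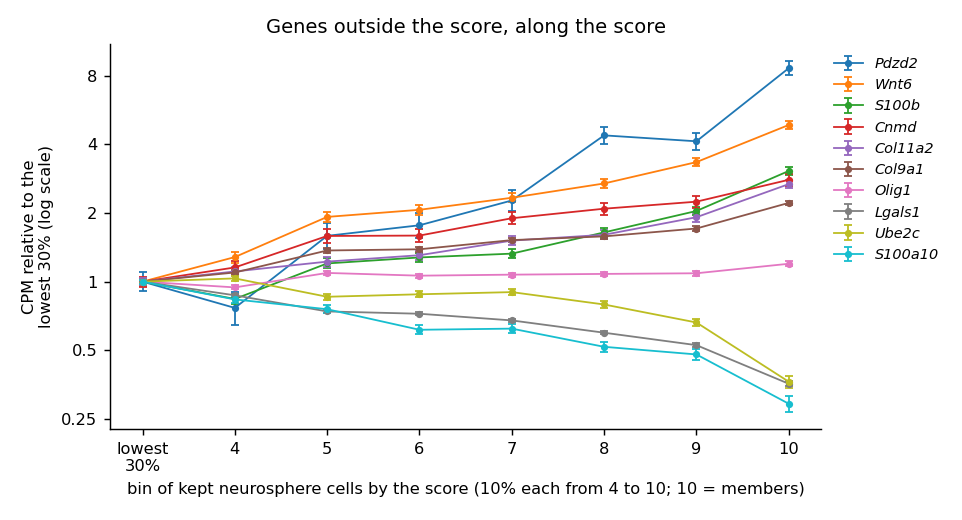
CPM of 10 genes outside the score along the score, relative to the lowest 30% of kept neurosphere cells (log scale), with exact 95% Poisson intervals scaled by the same value. Pdzd2 and Wnt6 climb, Col9a1 and Col11a2 climb less, Olig1 is nearly level, and Lgals1, Ube2c and S100a10 end lowest.

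Members lay near one another when the 5 score genes were left out. Among the 30 nearest neighbours of a member, on 18 principal components of 2000 variable genes, 21.3% were members on average, beside 10.0% of all kept cells. The share was 9.98% for cells between and 5.04% for comparison cells. It differed by leading gene, at 39.5% for members led by Comp, 23.2% by Col2a1, 19.0% by Matn1, 16.3% by Cytl1 and 5.56% by Col10a1. Neighbours tended to share the leading gene. Members led by Comp made up 14.8% of the neighbours of their own kind and 0.935% of kept cells, those led by Matn1 11.8% and 4.58%, and those led by Col2a1 11.5% and 2.60%. The 9 cells led by Col10a1 had 0% of their own kind among their neighbours. On average most neighbours of a member were thus not members.

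Other scores picked other cells. The top 10% of kept cells by the oligodendrocyte lineage list held 10.0% of the members (7.37–13.3%) and 11.7% of the comparison cells. By Hes5 and Fabp7 it held 47 members (an interval of 8.18–14.3% of them) and 8.89% of the comparison cells. By the keratin list the shares were 13.8% (10.7–17.4%) and 9.12%. By the stress list they were 3.97% and 12.5%, and by the proliferation lists 3.97% (2.33–6.28%) and 11.3%. All 5 shares are set against 10.0% of all kept cells: the members' interval held that value for the oligodendrocyte list and for Hes5 and Fabp7, and lay above it for the keratin list and below it for the stress and proliferation lists.

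In adherent cells the same 5 genes gave a score of 1 gene. Of 5051 kept adherent cells, 79.7% had a score of 0, and Col2a1 made up 99.0% of the score UMIs of the 505 top cells. Col2a1 was at 47.8 CPM over the kept adherent cells. Comp and Cytl1 were at 0.432 and 0.238 CPM there, and Matn1 and Col10a1 had 0 UMIs. The adherent top cells had at least 1.59 score UMIs per 10000, which is below the neurosphere threshold of 9.21. Median depth was 7403 UMIs in the top cells and 8117 UMIs in the adherent cells at or under the median of the score.

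Of 12373 measured genes, 129 (1.04%) were higher and 59 (0.477%) lower in the adherent top cells, and of 29 measured cartilage genes 7 were higher and 1 lower. The neurosphere and adherent cells share no control, and the minimum number of genes per kept cell was lower in the adherent library. Among 11690 genes measured in both, 196 were higher in the neurosphere members and 93 in the adherent top cells, and 30 were higher in both, which is 15.3% of the first and 32.3% of the second. Of 199 lower in the members and 43 lower in the adherent top cells, 12 were lower in both, which is 6.03% and 27.9%. Over all genes measured in the adherent cells, 1.04% were higher and 0.477% lower. In the neurosphere cells these shares were 2.28% and 1.71%. Another 2 were higher in the members and lower in the adherent top cells, and 4 the other way round. Col11a2 was at 54.2 and 26.0 CPM in the adherent cells (ratio 2.08, 1.79–2.41), Col27a1 at 34.5 and 12.0 CPM, Col9a1 at 118 and 53.5 CPM, S100b at 309 and 138 CPM and Enpp2 at 13.4 and 3.53 CPM. Each of these was higher in the neurosphere members too. Fgfr3 was at 39.9 and 6.02 CPM in the adherent cells, a ratio of 6.62 (5.37–8.14).

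Other genes differed less in the adherent cells or were too sparse there to compare. Wnt6 had 1 UMI in the adherent top cells and 16 in the others, and H19 had 4 and 14. Pdzd2 was at 96.7 and 50.7 CPM, a ratio of 1.91 (1.71–2.13), and Btbd17 at 18.5 and 12.1 CPM, a ratio of 1.53 (1.18–1.95). Ube2c was at 686 and 862 CPM and S100a10 at 1722 and 1660 CPM, ratios of 0.796 and 1.04, where the neurosphere ratios were 0.372 and 0.320. The difference between the cultures was not tested, since each is 1 library.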

How the data were processed

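The authors made 1 10x Genomics 3' v3 library from each culture. Per the labels, reads were processed with Cell Ranger 7.0.1 on mm10, and the deposited values are UMI counts per gene and called cell (4951 neurosphere and 5764 adherent cells, 82832873 and 68531063 UMIs). Here, mitochondrial genes and genes starting with Rps or Rpl were removed, and cells with at least 1000 UMIs and 2250 genes (1250 genes for adherent cells) were kept, leaving 4276 and 5051 cells with 64943938 and 46290996 UMIs. With the same limits applied before gene removal, 4300 and 5073 cells passed. The 675 and 713 cells left out entered none of the reported comparisons between cells, apart from alternatives with other limits on cells. Doublets were not removed.

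UMIs were summed over members and over comparison cells and divided by their totals (CPM). With 1 library per culture no test was run. Ratios carry exact conditional binomial intervals, levels exact Poisson intervals and shares of cells exact Clopper-Pearson intervals. A gene was measured from 50 UMIs over both sets, with a pseudocount of 1 CPM for counting genes at a ratio of 2 or 0.5. The genes named were the 5 score genes, the 56 cartilage list genes, the 10 genes each way with the most extreme log2 ratio of CPM + 5 among those with at least 100 UMIs, and genes of the other lists past the threshold, except where the text says otherwise; genes of other lists named without passing it were chosen after their values were seen. The members and the gene lists were chosen with earlier results of these data known. Alternatives changed the cell filter, the share of cells taken, the comparison cells, the score, the depth, the scaling (TMM by edgeR 4.0.16 in R 4.3.3), the pseudocount, the gene minimum and the number of neighbours. Computations used Python 3.11.15, numpy 2.4.6 and scipy 1.17.1, and the ratios and intervals were checked on simulated counts.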

Additional observations from a re-analysis of the deposited data

Results flagged for a closer look

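The 675 neurosphere barcodes that the cell filter left out, which the comparisons above do not use, carried UMIs of 4 of the 5 score genes above the limit that a count of 0 allows. They held 574706 UMIs in all. Comp was at 224 CPM there (129 UMIs), Matn1 at 193 CPM (111 UMIs), Col2a1 at 134 CPM (77 UMIs) and Cytl1 at 67.9 CPM (39 UMIs), while Col10a1 had 0 UMIs. Over all kept neurosphere cells the levels were 21.6 CPM for Comp, 117 CPM for Matn1, 73.3 CPM for Col2a1 and 71.4 CPM for Cytl1. The 10 barcodes with most UMIs of a gene held 66.7% of the Comp UMIs and 64.9% of the Matn1 UMIs among those left out. A Comp UMI was found in 5.33% of the barcodes left out and in 13.1% of the kept cells, at medians of 106 and 13198.5 UMIs.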

How the results depend on the processing

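No paired analysis was possible because each culture gave 1 library. The median log2 ratio of the cartilage list was above 0 in every alternative, between 0.27 and 0.52, against 0.37 as reported, and was lowest under TMM scaling (0.27), without Matn1 (0.28) and without Col2a1 (0.28) in the score. Against 287 higher and 216 lower genes as reported, the counts were 463 and 469 with the top 5% of cells as members, 150 and 72 with the top 20%, 187 and 122 with cells thinned to 5000 UMIs before ranking, 447 and 395 with no pseudocount, and 131 and 82 with a pseudocount of 5 CPM. There were 173 higher genes with all other kept cells as comparison. Lower genes numbered 130 with the score genes weighted equally, 103 without Matn1 in the score, and 366 among cells at or under the median of proliferation UMIs. Cartilage genes higher numbered 3 with all other kept cells as comparison, 4 with equal weights, 4 with thinned cells and 2 without Matn1, against 7. Members among the neighbours of members made up 22.3% with 15 neighbours, 20.5% with 50 and 19.0% when cells were ranked on one random part of their UMIs and neighbours taken from the other, against 21.3%. Of 49 named genes past the threshold, 28 lost the call in at least 1 of 20 alternatives, 24 of them without Matn1 in the score, 16 with the top 20% as members and 13 with equal weights. Of the 49, 1 had a ratio on the other side of 1 in any alternative, Aldh1l1 at 0.993 without Matn1 in the score. Of the 21 named genes not past it, 7 crossed 1 in at least 1 alternative, among them Hapln1 (0.205 to 1.28) and Matn2 (0.851 to 1.44). The 2 alternatives that left out members led by Comp or by Col10a1 were chosen after seeing the data. The causes of these shifts were not tested, apart from those fixed by the alternative itself, such as fewer or more cells. Depth limits the genes with few UMIs: 27 of the 56 cartilage genes had fewer than 50 UMIs over both sets, so none of these was called. Among them Acan had a ratio of 2.27 (0.654–6.40), within counting error, and Fgfr3 one of 8.06 (4.29–15.2), beyond it.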

Other observations

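Beyond the genes named by rule, the 30 genes each way ranked as most extreme by the ratio of CPM + 5 held further matrix, membrane and signalling genes, described here after their values were seen. Mfap2, which encodes a microfibril protein of the extracellular matrix, was at 60.0 CPM in the members and 19.4 CPM in the comparison cells, a ratio of 3.09 (2.68–3.57). Gpc5, a cell-surface heparan sulfate proteoglycan gene, was at 43.4 and 12.2 CPM (3.56, 2.99–4.23). Dmd, the dystrophin gene, was at 182 and 64.3 CPM (2.82, 2.60–3.06). Rgs16, a brake on G protein signals, was at 61.8 and 14.8 CPM (4.18, 3.60–4.85), and Auts2 at 310 and 105 CPM.

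Among the lower genes were small calcium-binding and chaperone genes that were abundant in the comparison cells. S100a6 was at 362 CPM in the members and 962 CPM in the comparison cells, 2.66-fold lower (2.53–2.79), and Cryab, a small heat shock protein gene, at 203 and 525 CPM, 2.59-fold lower (2.42–2.77). Reln, which encodes the secreted matrix protein reelin, was at 10.9 and 40.5 CPM, 3.73-fold lower (2.80–5.06). The mitotic genes Cdc20, Cenpa and Hmmr were 2.71-, 2.85- and 2.52-fold lower, beside the lower G2/M list and the lower depth of the members, whose part was not tested.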
